A study of Mus musculus with 6 samples.

Results

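The aldehyde dehydrogenases described here are 10 mouse genes, Aldh1a1, Aldh1a2, Aldh1a3, Aldh1a7, Aldh1b1, Aldh2, Aldh3a1, Aldh3a2, Aldh3b1 and Aldh9a1. They were picked by symbol from the annotation of the array platform, and the rule itself uses no measured value, although the family was proposed with earlier results of these data known. Together they have 17 probe sets of their own among the 45037 that were tested, and 10 of the 18193 genes with such a probe set. A probe set is a group of short DNA probes on the array that are designed against the same transcript. No member probe set is assigned to a further gene.

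RNA came from Wnt1-YL cells, a mouse mammary tumor line grown from an invasive carcinoma of an FVB/n mouse with an MMTV-Wnt1 transgene, in which the MMTV promoter drives Wnt1 in mammary epithelium. The cells of 3 arrays carried a lentiviral shRNA against Sca-1 (shSca-1), and those of the 3 control arrays an shRNA against luciferase (shLuc). All were grown in culture in the same medium, with adult bovine serum, insulin and EGF. Both groups thus share the tumor and the line, and the line stands for a single tumor. Each group carried its own shRNA vector and came from cells selected with puromycin after transduction. A difference between the transduced populations therefore cannot be told apart from the knockdown. The comparison asks which genes differ when Sca-1 is knocked down. The labels call the replicates biological but do not tell whether their cultures were separate. A p-value from limma sets a group difference against the variation between these samples, with each variance drawn partly from all probe sets. It does not cover variation beyond these samples.

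Aldehyde dehydrogenases oxidize aldehydes to carboxylic acids with NAD or NADP as cofactor. The enzymes ALDH1A1, ALDH1A2 and ALDH1A3 make retinoic acid from retinaldehyde, while others clear acetaldehyde, lipid peroxidation products, fatty aldehydes or amine-derived aldehydes. In the mammary gland, high aldehyde dehydrogenase activity in a flow cytometric assay is widely used to enrich stem and progenitor cells, and in human breast cells this activity has been ascribed mainly to ALDH1A1 and ALDH1A3.

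Values are linear intensities after the authors' normalization, with array medians between 37.3 and 40.6, and precision is limited by the number of arrays. Ly6a, the gene of Sca-1, had intensities of 285, 314 and 306 on shSca-1 replicates 1, 2 and 3, and of 7646, 7362 and 2843 on shLuc replicates 1, 2 and 3, a log2 fold change of -4.17 (shSca-1 minus shLuc, adjusted p = 0.051 from limma). Without shLuc replicate 3 it was -4.64 (adjusted p = 5.2e-07 from limma). Of 8 basal markers, 5 were at 64 or more on every array. They included the keratin genes Krt5 (3141 or more) and Krt14 (7779 or more) and the contractile gene Acta2 (4630 or more). The other 3, the contractile genes Myh11, Cnn1 and Mylk, were under 64 on every array. Krt5 and Krt14 were higher on every shSca-1 array than on any shLuc array. Their log2 fold changes were 0.66 and 0.25 (adjusted p = 0.69 and 0.61 from limma). Without shLuc replicate 3 they were 0.11 and 0.12. That of Acta2 was -0.36 (adjusted p = 0.72 from limma), and -0.66 (adjusted p = 0.037 from limma) without shLuc replicate 3. Krt17 was 831, 825 and 1171 on the shSca-1 arrays and 1583, 1655 and 1454 on the shLuc arrays. Its limma values were past the study's thresholds, which are a fold over 1.5 and an unadjusted p under 0.01. The log2 fold change was -0.75 (adjusted p = 0.23 from limma), and -0.80 (adjusted p = 0.037 from limma) without shLuc replicate 3. By the methods' own test on all arrays, the unadjusted p of Krt17 was not under 0.01. On shLuc replicate 3, luminal epithelial markers stood apart. Of 19 luminal markers measured, 16 were highest on this array and 12 were over 4 times their level on every other array. The summed luminal intensity was 712 to 743 on the shSca-1 arrays, 662 and 717 on shLuc replicates 1 and 2, and 23204 on shLuc replicate 3. Krt18, a luminal keratin gene, was 37.7 to 65.2 on the shSca-1 arrays, 51.6 and 46.1 on shLuc replicates 1 and 2, and 7175 on shLuc replicate 3. The 8 basal markers summed to 29173 to 32040 on the shSca-1 arrays, 33322 and 33327 on shLuc replicates 1 and 2, and 18149 on shLuc replicate 3. Fibroblast, adipocyte, endothelial and leukocyte markers summed to at most 587 on any array. The part of these cells or of this array in the results was not tested, and results are given with and without shLuc replicate 3 where it moves them.

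The members fell into probe sets well above the array medians and probe sets near or below them. On all 6 arrays, 5 probe sets of Aldh2, Aldh3a1, Aldh3a2 and Aldh9a1 had an intensity of 64 or more. Another 11 were under 64 on every array, and that of Aldh3b1 reached 64 on 1 array. Intensities of different probe sets do not rank genes by abundance, because each set of oligonucleotides has its own response. The values can only be compared between arrays for the same probe set.

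**Figure D1:**
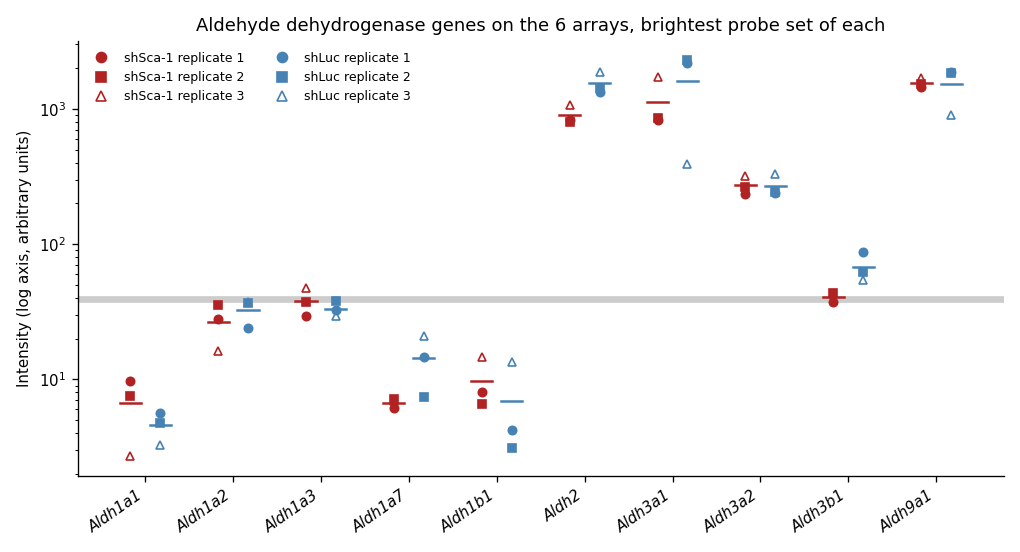
Intensity of the brightest probe set of each of the 10 aldehyde dehydrogenase genes by array, in arbitrary units on a log axis. Points are arrays (red, shSca-1; blue, shLuc; open triangles, replicate 3), short lines are means of 3 arrays and the grey band is the range of array medians, 37.3 to 40.6. Aldh2 is lower on all 3 shSca-1 arrays, and Aldh3a1 and Aldh9a1 are lowest on shLuc replicate 3.

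Aldh1a1 and Aldh1a7 are neighbouring genes on the same chromosome, with 3 annotated genes between them, and Aldh1a7 is a close paralog of Aldh1a1. Promoter sequences from RefSeq (build GRCm38.p6, 300 bases an entry) matched 7 of the 10 genes. Aldh1a3, Aldh2 and Aldh3a1 had no entry. Of the 2 entries of Aldh1a1, the 120 bases before the start shown here matched Aldh1a7 at 105 positions (87.5%) without gaps, and those of the other start at 35. They are shown because this pair, alike in sequence, gave log2 fold changes of opposite sign (0.39 for Aldh1a1 and -0.98 for Aldh1a7). Both probe sets were below the array medians, however, and neither sign is settled. The 95% confidence intervals were -1.06 to 1.84 for Aldh1a1 and -2.10 to 0.14 for Aldh1a7. How far the probe sets tell their transcripts apart was not tested. Capitals mark the 15 positions that differ. Aldh1a1 lies at chr19:20601848-20601967 on the plus strand and Aldh1a7 at chr19:20727557-20727676 on the minus strand, both written 5′ to 3′.
Aldh1a1: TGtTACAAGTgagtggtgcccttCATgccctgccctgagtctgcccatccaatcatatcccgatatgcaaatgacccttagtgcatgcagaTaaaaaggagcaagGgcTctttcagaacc
Aldh1a7: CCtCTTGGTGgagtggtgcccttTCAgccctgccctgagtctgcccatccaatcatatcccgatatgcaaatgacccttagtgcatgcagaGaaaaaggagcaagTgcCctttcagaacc
Most differences lie in the outer bases, and the stretch around the ccaat motif is the same in both. The letters CCAAT, on either strand, occur in 6 of the 8 entries of the 7 genes, 1 entry each of 6 genes. They occur in 37.4% of all 32851 promoter entries. TATAAA, searched on both strands of each 300-base entry, was found for Aldh1a7, as in 13.6% of all entries. These letters are not in the 120 bases shown for either gene.

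The retinaldehyde dehydrogenase genes were near or below the array medians in both groups. Aldh1a1, the cytosolic enzyme for which the stem cell assay is best known, had intensities of 9.72, 7.57 and 2.71 on the shSca-1 arrays and of 5.62, 4.79 and 3.29 on the shLuc arrays. The groups overlapped, and 6.44% of all probe sets had a mean log2 value at or below its own. The log2 fold change was 0.39 (95% confidence interval -1.06 to 1.84, adjusted p = 0.88 from limma), so a difference of either sign was not detectable at this intensity. Leaving out shLuc replicate 3 gave 0.17 (adjusted p = 0.94 from limma). Aldh1a2, which supplies retinoic acid in the embryo, had intensities of 27.9, 35.2 and 16.3 on the shSca-1 arrays and of 24.1, 36.6 and 37.6 on the shLuc arrays. The groups overlapped here as well (log2 fold change -0.35, 95% confidence interval -1.22 to 0.52, and -0.24 without shLuc replicate 3).

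Aldh1a3, a gene of luminal progenitor cells in the normal mammary gland, was represented by 3 probe sets. The brightest, 1448789_at, had intensities of 29.5, 37.6 and 47.1 on the shSca-1 arrays and of 32.3, 38.01 and 29.5 on the shLuc arrays, with a log2 fold change of 0.18 (95% confidence interval -0.45 to 0.80, adjusted p = 0.87 from limma), and 0.09 without shLuc replicate 3. The other 2 had log2 fold changes of opposite sign, -0.40 for 1417642_at and 0.67 for 1427395_a_at, and the groups overlapped in all 3. On shLuc replicate 3, where the luminal keratins stood apart, the 3 probe sets were at 29.5, 41.7 and 9.90, against highest values of 38.01, 51.6 and 8.92 on shLuc replicates 1 and 2. On that array Aldh1a3 was thus within or close to the range of the other shLuc arrays.

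Among the genes named Aldh1a, Aldh1a7 was the one with groups that did not overlap. Its intensity was 6.15, 7.13 and 6.88 on the shSca-1 arrays and 14.6, 7.46 and 21.1 on the shLuc arrays. All values were below the array medians, and the nearest pair, 7.13 and 7.46, almost touched. The log2 fold change was -0.98 (95% confidence interval -2.10 to 0.14, adjusted p = 0.60 from limma), and -0.64 without shLuc replicate 3 (adjusted p = 0.64 from limma).

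Of the mitochondrial enzymes, Aldh2 was lower in shSca-1 cells. Aldh2, the main enzyme of acetaldehyde oxidation, had intensities of 833, 798 and 1073 on shSca-1 replicates 1, 2 and 3, and of 1342, 1430 and 1857 on shLuc replicates 1, 2 and 3 (probe set 1448143_at). All 3 shSca-1 values lay below all 3 shLuc values, and replicate 3 was the highest in each group. The means were 901 ± 149.8 (SD, n = 3) in shSca-1 cells and 1543 ± 276 (SD, n = 3) in shLuc cells. The log2 fold change was -0.77 (standard error 0.17, 95% confidence interval -1.17 to -0.38), or 0.585 of the shLuc level. It was past the study's thresholds in limma (unadjusted p = 0.0024, adjusted p = 0.25). Without shLuc replicate 3, where Aldh2 was highest, it was -0.63 (adjusted p = 0.048 from limma). The call at the study's thresholds was lost when shSca-1 replicate 1 or 2 was left out (unadjusted p = 0.013 and 0.014 from limma), by the methods' t-test (unadjusted p = 0.017), with no trend in the variance (0.011), with intensities under 64 set to 64 (0.014) and for the mean of all Aldh2 probe sets (0.014), while the log2 fold change stayed between -0.91 and -0.63 in all alternatives run.

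The other 4 probe sets of Aldh2 were dim, between 5.35 and 43.9 on the shSca-1 arrays and between 17.9 and 48.0 on the shLuc arrays. Each had a negative log2 fold change, from -1.25 to -0.31, and in each the groups overlapped. The smallest adjusted p among them was 0.58 from limma. They thus had the direction of 1448143_at without a difference beyond the spread between arrays. The mean over all 5 had a log2 fold change of -0.68 (adjusted p = 0.39 from limma).

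Aldh1b1, a mitochondrial enzyme related to Aldh2, was dim and variable. Its intensity was 8.02, 6.54 and 14.6 on the shSca-1 arrays and 4.21, 3.13 and 13.5 on the shLuc arrays. Replicate 3 was highest in both groups, and the groups overlapped. The log2 fold change was 0.70 (95% confidence interval -0.86 to 2.27, adjusted p = 0.79 from limma), and 1.33 without shLuc replicate 3 (adjusted p = 0.34 from limma).

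Aldh3a1 had the widest spread among the bright probe sets. Aldh3a1 oxidizes aldehydes of lipid peroxidation in the cytosol and is known as an abundant protein of the cornea. Its intensity was 829, 853 and 1713 on shSca-1 replicates 1, 2 and 3, and 2184, 2282 and 388 on shLuc replicates 1, 2 and 3. The lowest and the highest of the 6 values were thus both on shLuc arrays. On shLuc replicates 1 and 2 it was on average 5.76 times that on replicate 3, and shSca-1 replicate 3 had 2.04 times the mean of shSca-1 replicates 1 and 2. The means were 1132 ± 503 (SD, n = 3) in shSca-1 cells and 1618 ± 1067 (SD, n = 3) in shLuc cells, and the log2 fold change was -0.22 (95% confidence interval -1.85 to 1.4, adjusted p = 0.94 from limma). Leaving out shLuc replicate 3 gave -1.07 (standard error 0.28, 95% confidence interval -1.72 to -0.41, unadjusted p = 0.0057, adjusted p = 0.10 from limma), past the study's thresholds, and the groups no longer overlapped. Without shLuc replicate 1 or 2 it turned positive, at 0.18 and 0.21.

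Aldh3a2 lies next to Aldh3a1 in the annotation with no gene between them, but its values did not follow it. Aldh3a2, the fatty aldehyde dehydrogenase of the endoplasmic reticulum, had intensities of 234, 263 and 320 on the shSca-1 arrays and of 240, 243 and 330 on the shLuc arrays. Replicate 3 was highest in both groups, and the means were 272 ± 43.6 in shSca-1 cells and 271 ± 51.1 in shLuc cells (SD, n = 3 each). The log2 fold change was 0.01 (95% confidence interval -0.42 to 0.45, adjusted p = 0.99 from limma), an interval that leaves room for a change of either sign. On shLuc replicate 3 it was 1.37 times the mean of shLuc replicates 1 and 2, whereas Aldh3a1 was at 0.174 of that mean.

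Aldh3b1, an enzyme for medium- and long-chain aldehydes, had intensities of 37.1, 43.2 and 42.5 on the shSca-1 arrays and of 87.4, 62.5 and 54.2 on the shLuc arrays. The groups did not overlap, and the shSca-1 values were within or near the range of the array medians. The log2 fold change was -0.71 (95% confidence interval -1.28 to -0.14, unadjusted p = 0.022, adjusted p = 0.45 from limma). Without shLuc replicate 3 it was -0.86 (unadjusted p = 0.0075, adjusted p = 0.12 from limma), past the study's thresholds, and with intensities under 64 set to 64 it was -0.15.

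Aldh9a1, which oxidizes the aldehyde precursors of carnitine and of GABA, was measured by 2 bright probe sets that gave the same picture. Probe set 1436689_a_at had intensities of 1442, 1535 and 1695 on shSca-1 replicates 1, 2 and 3, and of 1858, 1828 and 906 on shLuc replicates 1, 2 and 3. Probe set 1437398_a_at had 648, 713 and 774 on the shSca-1 arrays and 872, 840.0 and 411 on the shLuc arrays. In each, shLuc replicate 3 was the lowest of the 6 arrays, at 0.492 and 0.480 of the mean of the other shLuc arrays, and shLuc replicates 1 and 2 were the highest. The log2 fold changes were 0.10 and 0.08 on 6 arrays (adjusted p = 0.94 and 0.95 from limma). When shLuc replicate 3 was left out they turned to -0.25 and -0.27 (95% confidence intervals -0.44 to -0.05 and -0.49 to -0.05, adjusted p = 0.19 and 0.20 from limma).

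The promoter entry of Aldh9a1 is shown as that of the gene with 2 bright probe sets. The stretch is the 120 bases before the start, chr1:167349871-167349990 on the plus strand of GRCm38.p6, 5′ to 3′. Capitals mark a match to the core of the antioxidant response element, TGACNNNGC, which starts 87 bases before the gene's start.
Aldh9a1: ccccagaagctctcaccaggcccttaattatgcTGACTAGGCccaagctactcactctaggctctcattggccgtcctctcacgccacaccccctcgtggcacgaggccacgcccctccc
On both strands searched, 2 of the 8 entries of the 7 genes held these letters, those of Aldh9a1 and Aldh1a2, as did 12.4% of all promoter entries. The letters GCGTG, the core of the xenobiotic response element, were found for Aldh1a2, Aldh3a2 and Aldh9a1, as in 32.4% of all entries. In the stretch shown, the capitals overlap neither GCGTG nor CCAAT. A match is a description of the letters and not a measured binding site.

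Over all 17 probe sets, 10 log2 fold changes were negative (58.8%) and 7 positive, with a median of -0.31. Of all 45037 probe sets tested, 54.0% were negative and the median was -0.03. For 3 of the 17, of Aldh1a7, Aldh2 and Aldh3b1, all shSca-1 arrays lay below all shLuc arrays (17.6%), against 9.81% of all probe sets and 15.2% of those at 64 or more on all 6 arrays, and for 0 did they lie above, against 6.7%. At an adjusted p under 0.05, limma called 0 of the 17 and 0% of all probe sets. The methods' t-test, once adjusted by Benjamini-Hochberg, also called 0 of the 17, against 0.00888% of all. At an unadjusted p under 0.05 limma gave 2 of the 17, Aldh2 and Aldh3b1, or 11.8%, against 9.26% of all. At the study's thresholds limma gave 1, Aldh2, or 5.88%, against 1.83% of all probe sets, and the methods' t-test gave 0, against 1.27%. Without shLuc replicate 3, Aldh2 alone passed an adjusted p under 0.05, against 2.76% of all probe sets, and Aldh2, Aldh3a1 and Aldh3b1 passed the study's thresholds, or 17.6%, against 3.56%. An unadjusted p under 0.05 was then reached by 6 of the 17, all with negative log2 fold changes, against 16.3% of all. These were 2 probe sets of Aldh2, 2 of Aldh9a1, and those of Aldh3a1 and Aldh3b1. Whether the family differs from the rest of the array was not tested. With 3 arrays a group, 0.1 is the smallest two-sided p that an exact permutation test allows.

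**Figure D2:**
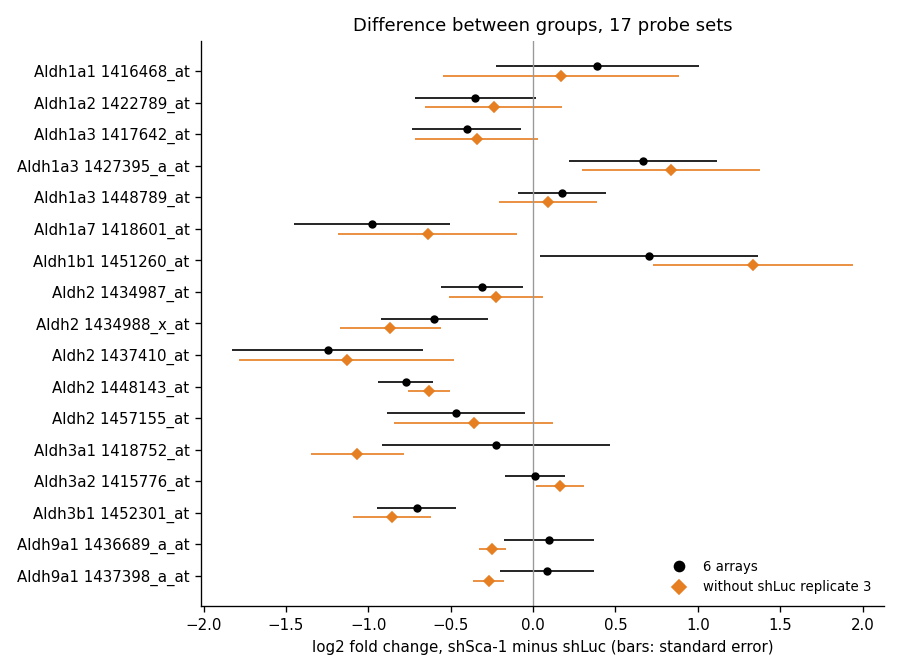
Log2 fold changes (shSca-1 minus shLuc) for 17 aldehyde dehydrogenase probe sets. Black circles are from 6 arrays, orange diamonds leave out shLuc replicate 3, and bars are standard errors from limma. The diamond of Aldh3a1 lies at -1.07 and its circle at -0.22, and both Aldh9a1 probe sets change sign between the settings.

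The genes most like the widest-ranging bright members were found by Pearson's r of log2 values over the 6 arrays, among 10123 other genes with a mean intensity of 64 or more. Values of r over 6 arrays that share 1 outlying array are easily high, and 335 of these genes had an r over 0.95 with Aldh3a1. The highest were Rere, a nuclear corepressor gene (r = 0.999), Nfe2l2, which encodes the transcription factor NRF2 (r = 0.999), and Ndrg1, a gene of stress response (r = 0.999). Nfe2l2 had intensities of 2190, 2231 and 3302 on the shSca-1 arrays and of 3609, 3681 and 1509 on the shLuc arrays, and ordered the 6 arrays as Aldh3a1 did (Spearman's rho = 1). Without shLuc replicate 3, r was 0.9996 for Rere, 0.998 for Nfe2l2 and 0.999 for Ndrg1. For Aldh2, 167 genes had an r over 0.95. The highest were Socs5, an inhibitor of cytokine signaling (r = 0.994), Gramd4 (r = 0.994) and Micu2, a regulator of mitochondrial calcium uptake (r = 0.993). Socs5 had intensities of 751, 745 and 895 on the shSca-1 arrays and of 1009, 1012 and 1259 on the shLuc arrays. Each r is a description of these 6 arrays.

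**Figure D3:**
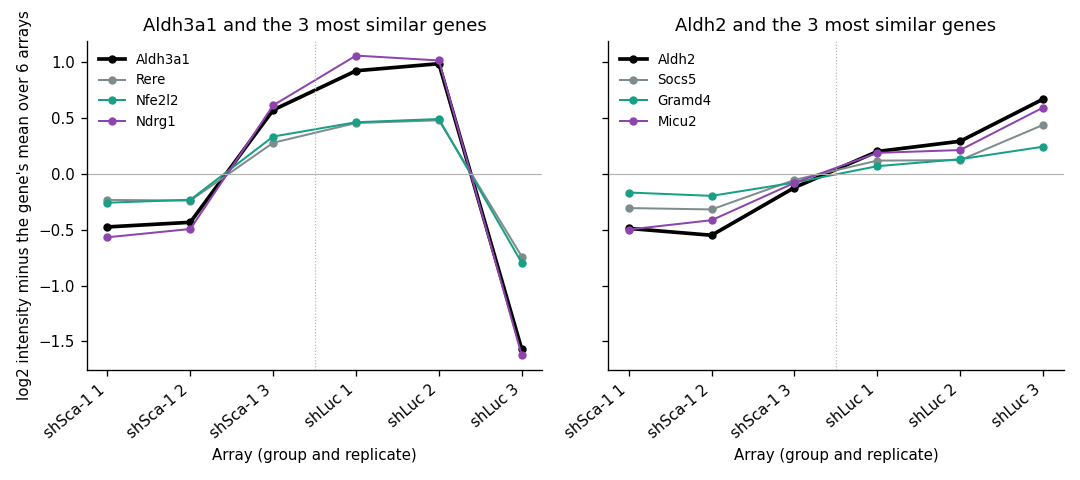
Log2 intensity minus the gene's own mean over 6 arrays, for Aldh3a1 (left) and Aldh2 (right) in black and the 3 genes with the highest Pearson's r to each in colour. The horizontal axis gives the arrays, shSca-1 left of the dotted line and shLuc right of it, and lines only join the values of a gene. Aldh3a1 and its 3 genes are lowest on shLuc replicate 3, while Aldh2 is highest there.

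Among the other members of the aldehyde dehydrogenase superfamily, 10 of 11 genes were measured. In limma 0 passed the study's thresholds, against 1.83% of all probe sets. Aldh7a1, an enzyme of lysine breakdown, had intensities of 314, 376 and 375 on the shSca-1 arrays and of 470, 480 and 744 on the shLuc arrays (log2 fold change -0.64 with an adjusted p of 0.41 from limma, and -0.43, adjusted p = 0.098, without shLuc replicate 3). In this brightest probe set, 1460167_at, the groups did not overlap, and like Aldh2 it was highest on shLuc replicate 3. The dim Aldh7a1 probe sets 1415902_at and 1448137_at were at most 8.45 and 21.5 on any array. Their groups overlapped, with log2 fold changes of 0.94 and 0.78. Aldh1l2, which oxidizes formyltetrahydrofolate in mitochondria, had 297, 334 and 549 on the shSca-1 arrays and 894, 789 and 255 on the shLuc arrays. Like Aldh3a1 and Aldh9a1 it was lowest on shLuc replicate 3 (log2 fold change -0.58, adjusted p = 0.76 from limma). Leaving that array out gave -1.15 (adjusted p = 0.0498 from limma). The median log2 fold change of the 10 genes was -0.19, against -0.11 for the 10 aldehyde dehydrogenases described above by their brightest probe sets. Without shLuc replicate 3 these medians were -0.38 and -0.24, against -0.04 for all probe sets tested.

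Of the genes that supply, bind or break down retinoids, 25 of 28 were measured. On 6 arrays 0 passed the study's thresholds in limma, against 1.83% of all probe sets. Of the log2 fold changes 9 were negative and 16 positive, and the median was 0.04, and 0.06 without shLuc replicate 3. Rdh11, a retinal reductase gene, had intensities of 614, 657 and 766 on the shSca-1 arrays and of 437, 398 and 538 on the shLuc arrays. The groups did not overlap. Its log2 fold change was 0.57 (adjusted p = 0.33 from limma). Leaving out shLuc replicate 3, it was higher at 0.70 (adjusted p = 0.024 from limma). Rdh1, a retinol dehydrogenase gene, was at most 13.3 on any array (log2 fold change 1.43 with an adjusted p of 0.56 from limma, and 1.10 without shLuc replicate 3). Rdh10, the retinol dehydrogenase that makes the retinaldehyde used by ALDH1A1, ALDH1A2 and ALDH1A3, was named after its values were seen. It was at 405, 471 and 406 on the shSca-1 arrays, 398 and 347 on shLuc replicates 1 and 2, and 4398 on shLuc replicate 3.

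Of 17 measured retinoic acid receptors and known target genes, out of 18, 0 passed the study's thresholds in limma, against 1.83% of all probe sets. The median log2 fold change was -0.10, and -0.26 without shLuc replicate 3. Meis1, a homeobox gene, had intensities of 82.2, 95.8 and 109 on the shSca-1 arrays and of 125, 127 and 201 on the shLuc arrays (log2 fold change -0.63 with an adjusted p of 0.49 from limma, and -0.41, adjusted p = 0.29, without shLuc replicate 3). Rarres2, which encodes chemerin, had a log2 fold change of 0.89 on 6 arrays (adjusted p = 0.61 from limma), which became 0.44 without shLuc replicate 3. When shLuc replicate 3 was left out, an adjusted p under 0.05 was met by 2.76% of all probe sets and by 1 of these genes. It was Tgm2, a transglutaminase gene named after its values were seen, with a log2 fold change of -0.38 (adjusted p = 0.048 from limma), against -0.18 on 6 arrays.

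Other aldehyde-metabolizing enzymes held 1 gene past the study's thresholds among 24 measured of 28, against 1.83% of all probe sets. It was Aox3, an aldehyde oxidase gene, with intensities of 1.86, 1.13 and 1.33 on the shSca-1 arrays and of 17.2, 10.3 and 7.67 on the shLuc arrays. All 6 values were far below the array medians, and the log2 fold change of -2.97 (adjusted p = 0.18 from limma) is between levels at which the array gives little signal. With intensities under 16 set to 16 it no longer passed the thresholds. Cbr4, a carbonyl reductase gene of mitochondria, had intensities of 238, 252 and 257 on the shSca-1 arrays and of 392, 340 and 379 on the shLuc arrays. Its log2 fold change was -0.57 on 6 arrays (adjusted p = 0.22 from limma) and -0.55 without shLuc replicate 3 (adjusted p = 0.044 from limma), about the same size. The median of the list was -0.12, and -0.18 without shLuc replicate 3.

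Of the enzymes that make or share the substrates of ALDH9A1 and ALDH3A2, in carnitine, polyamine, sphingolipid and fatty alcohol metabolism, 20 of 21 were measured. In limma 0 passed the study's thresholds, against 1.83% of all probe sets. The median log2 fold change was -0.05, which was 0.01 without shLuc replicate 3. Maoa, the monoamine oxidase A gene, had intensities of 740, 791 and 799 on the shSca-1 arrays and of 919, 892 and 967 on the shLuc arrays (log2 fold change -0.25, adjusted p = 0.48 from limma). Odc1, of the rate-limiting enzyme of polyamine synthesis, had a log2 fold change of 0.37 on 6 arrays (adjusted p = 0.57 from limma). Leaving shLuc replicate 3 out, this became 0.17 (adjusted p = 0.25 from limma). Sgpl1, the sphingosine phosphate lyase gene whose aldehyde product is a substrate of ALDH3A2, was named after its values were seen. It had intensities of 677, 607 and 614 on the shSca-1 arrays and of 928, 942 and 555 on the shLuc arrays, and these overlapped. Its log2 fold change was -0.31 on 6 arrays (adjusted p = 0.70 from limma) and -0.56 without shLuc replicate 3 (adjusted p = 0.017 from limma).

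**Figure D4:**
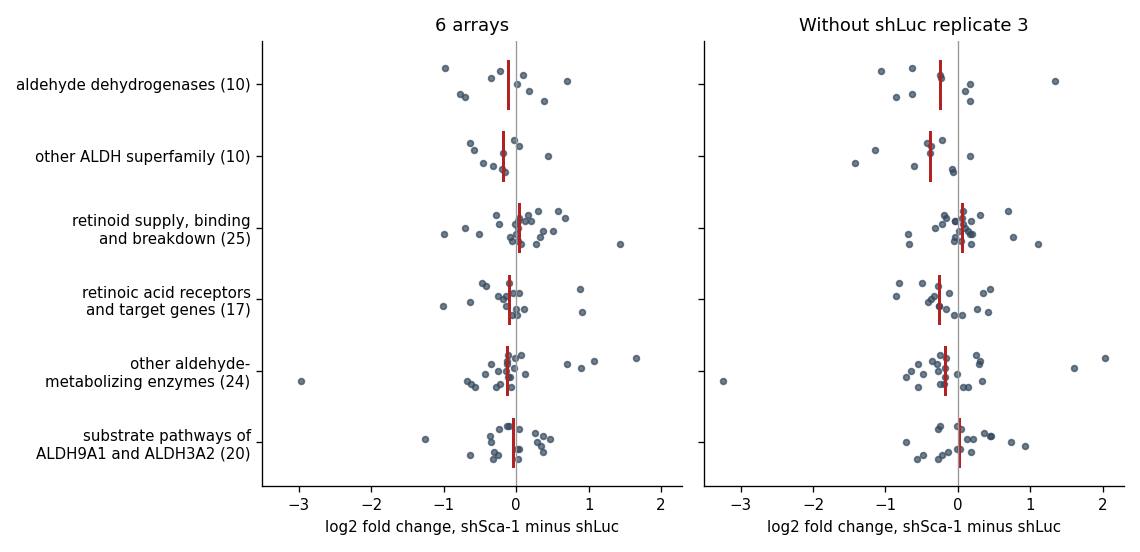
Difference of mean log2 intensity (shSca-1 minus shLuc) in 6 gene lists, on 6 arrays (left) and without shLuc replicate 3 (right). Each point is a gene by its brightest probe set, with vertical spread only for legibility, each red line is a list's median, and parentheses hold how many genes were measured. The median of the 10 aldehyde dehydrogenases is -0.11 on 6 arrays and -0.24 without that array.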

How the data were processed

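RNA of 3 shSca-1 and 3 shLuc samples was hybridized to Affymetrix mouse genome arrays. The authors computed the deposited intensities with dChip (PM-MM model, invariant set normalization), and the deposited values are linear, with 1.12% of them exactly 1. The dChip version and a genome build for the probe sets are not given in the sources used here. Log2 was taken after raising values under 1 to 1, and the 64 control probe sets were dropped, while dim probe sets stayed in. The comparison was made in limma 3.58.1 (R 4.3.3; lmFit, then eBayes with trend), and p-values were Benjamini-Hochberg adjusted over 45037 probe sets. The limma values were also held against the study's thresholds (fold over 1.5, unadjusted p under 0.01). The script was tested on simulated data.

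A gene in a list is represented by its brightest own probe set, by mean log2 value. All members were named, with up to 2 genes of each list with the smallest p, any past the study's thresholds, and 3 genes most like each of 2 members. Keratin and other marker genes are named as checks of the cell type and were picked from their lists after their values were seen, and any other gene is marked likewise in the text. The members and lists were chosen with earlier results of these data known. The Ly6a probe set was identified by its ID in the study's supplementary list. Across probe sets, same-numbered arrays deviated from their group means with correlations of -0.04, -0.02 and -0.03, so replicates were not treated as pairs. Alternatives were quantile normalization, median centring, floors of 16 and 64, a filter at the 40 percentile, other variance settings, the methods' t-test (two-sided), gene means, leaving out each array in turn and a fit with a replicate block.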

Additional observations from a re-analysis of the deposited data

How the results depend on the processing

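Of 246 alternative values of the 17 probe sets, 239 kept their sign and 1 passed an adjusted p under 0.05, that of Aldh2 without shLuc replicate 3. Many of the 239 could not have changed sign. The other variance settings, the methods' t-test and the replicate block change the p-value but not the log2 fold change. The floors and the filter also leave the values of bright probe sets as they are. The 7 that changed sign all came from leaving out an array. They were Aldh3a1 without shLuc replicate 1 (0.18) or 2 (0.21), Aldh3a2 without shLuc replicate 1 (-0.07), shLuc replicate 2 (-0.06) or shSca-1 replicate 3 (-0.11), and the Aldh9a1 probe sets 1436689_a_at (-0.25) and 1437398_a_at (-0.27) without shLuc replicate 3. With each array left out in turn, Aldh3a1 lay between -1.07 and 0.21, Aldh3a2 between -0.11 and 0.16, and the Aldh9a1 probe sets between -0.25 and 0.27 and between -0.27 and 0.27. When 1 array was left out, 0 to 1 member probe sets passed an adjusted p under 0.05 and 0 to 3 passed the study's thresholds. That second count, 1 on 6 arrays, was 0 with intensities under 64 set to 64, with no trend in the variance, by the methods' t-test and for gene means. It stayed at 1 with a replicate block, where Aldh2 had an unadjusted p of 8.3e-04 and an adjusted p of 0.47 from limma. The count of retinoid genes was 1 after quantile normalization or median centring, and 0 to 1 when 1 array was left out. That of other aldehyde-metabolizing enzymes was 0 with floors of 16 or 64 and with the filter at the 40 percentile, 2 with a replicate block, and 1 to 2 when 1 array was left out. That of the other superfamily genes was 0 to 1 when 1 array was left out. The cause of these moves was not tested, except that a floor raises dim values and the filter removes dim probe sets. Ly6a kept its sign, and passed an adjusted p under 0.05 after median centring (-4.11), with the filter (-4.17), with robust variance (-4.17) and without shLuc replicate 3 (-4.64). When 1 array was left out it lay between -4.64 and -3.92. Over all probe sets, limma gave 824 past the study's thresholds, against 329 with a floor of 64, 507 and 534 when shSca-1 replicate 1 or 2 was left out, and 1605 without shLuc replicate 3. At an adjusted p under 0.05 it gave 0, against 5 after quantile normalization, 19 after median centring, 24 and 7 with floors of 16 and 64, 32 with the filter, 56 with robust variance and 1244 without shLuc replicate 3.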

Other observations

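Aldh18a1, which encodes the enzyme that starts proline synthesis from glutamate, is a further gene of the superfamily with several probe sets, and was named after its values were seen. In its brightest probe set, 1437325_x_at, the intensity was 1726, 1844 and 1975 on the shSca-1 arrays and 2338, 2459 and 996 on the shLuc arrays. In all 5 of its probe sets, shLuc replicate 3 was the lowest of the 6 arrays and shLuc replicates 1 and 2 were the highest, the order seen for Aldh9a1.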
